A study of Mus musculus with 45 samples.

Results

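Pim2, Mtap7d3, Igfbp2, Tcea3, Bcat2, Zcwpw1 and Mdk are 7 of the 15997 genes listed in at least 1 of the 3 deposited tables of the series, and each of the 7 is in all 3 tables. They were chosen by their large fall with section number along a mouse embryo of the embryonic stage E5.75, and set apart from well-known epiblast genes such as Pou5f1. The values at E5.75 are therefore given as a description, without a test. The question asked of the data is whether the same genes also fell along the sections at E5.25 and E5.5, stages that the choice did not use.

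The embryo at these stages is a cylinder with the epiblast, which gives rise to the body, at its distal end, and the extraembryonic ectoderm and ectoplacental cone, which feed the placenta, at its proximal end, with a sheet of visceral endoderm around it. The 7 genes do not share a pathway. Igfbp2 encodes a secreted protein that binds insulin-like growth factors, and Mdk encodes midkine, a secreted heparin-binding growth factor. Pim2 is a serine/threonine kinase of the Pim family, known for its part in cell survival and protein synthesis. Tcea3 belongs to the TFIIS family of transcript elongation factors, and Zcwpw1 is a reader of histone methylation known for its part in the repair of meiotic DNA breaks. Bcat2 is the mitochondrial aminotransferase that takes the amino group from leucine, isoleucine and valine. Mtap7d3, now named Map7d3, is a microtubule-associated protein of the MAP7 family.

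The genes lie on 6 chromosomes of GRCm38 (mm10): Pim2 at chrX:7878262-7883432 on the plus strand, Mtap7d3 at chrX:56797858-56822326 on the minus strand, Igfbp2 at chr1:72824503-72852474 on the plus strand, Tcea3 at chr4:136247729-136274898 on the plus strand, Bcat2 at chr7:45570153-45589711 on the plus strand, Zcwpw1 at chr5:137787798-137822621 on the plus strand and Mdk at chr2:91929805-91932297 on the minus strand. All are annotated as protein-coding in GENCODE M21. Bcat2 overlaps an annotated antisense gene, 0610005C13Rik, and the end of Zcwpw1 overlaps Pilra on the other strand, so reads of these pairs cannot be told apart without strand. The annotation also lists a processed pseudogene of Mdk, Mdk-ps1, and whether Mdk reads were shared with it was not tested. RefSeq promoter windows of GRCm38.p6, from 250 bases before to 50 bases after a start site, were found for 6 of the 7 genes, 9 windows in all, and for these genes GC content ranged from 50.33% to 67.0%, against a median of 52.67% over 32851 promoters. The windows of Pim2, Mtap7d3 and Igfbp2 are printed because these genes had the 3 steepest fitted falls of the 7 at E5.75. Capitals mark every match, on either strand, to ATGCAAAT (the octamer that POU factors such as the Pou5f1 protein bind), GGGCGG (a GC box), CCAAT and CACGTG (an E-box), and each sequence is written 5′ to 3′ on the strand of its gene.
Pim2 chrX:7878056-7878355, plus strand: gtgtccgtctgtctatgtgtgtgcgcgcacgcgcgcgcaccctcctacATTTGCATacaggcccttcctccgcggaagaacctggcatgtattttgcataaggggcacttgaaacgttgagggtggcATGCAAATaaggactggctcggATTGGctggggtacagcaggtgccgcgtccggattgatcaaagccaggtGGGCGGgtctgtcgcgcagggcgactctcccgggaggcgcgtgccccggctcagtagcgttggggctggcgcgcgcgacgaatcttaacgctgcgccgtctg
Mtap7d3 chrX:56822276-56822575, minus strand: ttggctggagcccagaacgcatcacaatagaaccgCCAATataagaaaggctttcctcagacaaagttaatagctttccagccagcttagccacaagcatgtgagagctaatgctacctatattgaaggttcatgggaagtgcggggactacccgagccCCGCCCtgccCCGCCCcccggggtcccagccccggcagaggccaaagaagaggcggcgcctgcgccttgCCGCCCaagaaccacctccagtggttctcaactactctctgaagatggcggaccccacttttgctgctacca
Igfbp2 chr1:72824230-72824529, plus strand: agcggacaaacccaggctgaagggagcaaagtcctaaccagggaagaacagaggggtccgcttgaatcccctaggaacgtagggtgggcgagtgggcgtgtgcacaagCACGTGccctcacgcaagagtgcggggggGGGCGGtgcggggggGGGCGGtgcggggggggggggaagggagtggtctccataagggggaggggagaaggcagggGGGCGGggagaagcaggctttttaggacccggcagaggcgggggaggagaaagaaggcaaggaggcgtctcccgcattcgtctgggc
The Pim2 window holds the octamer at 2 places, -202 on the reverse strand and -123 on the forward strand, counted from the start site. The octamer is in 1.735% of all promoter windows, and at 2 or more places in 0.107% of them, and no window of the other 5 genes holds it. GGGCGG is in windows of 5 of the 6 genes and in 35.658% of all windows. The Mtap7d3 window holds it at 3 places, all on the reverse strand, where it reads CCGCCC, and the Igfbp2 window at 3 places on the forward strand. The reverse of CCAAT reads ATTGG, and this motif, in 37.408% of all windows, is in those of Pim2, Mtap7d3 and Tcea3. The E-box, in 7.15% of all windows, is in that of Igfbp2 only, and the TATA box, TATAAA, in 13.616%, is in none of the 9. The windows of Bcat2 hold none of the 5 motifs. A match describes the letters in these windows and not a bound site.

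RNA came from cryosections of E5.25, E5.5 and E5.75 embryos, cut out under a microscope by laser capture microdissection, and sequenced with the low-input Smart-seq2 method. The labels name 45 samples: 7 sections at E5.25, 17 samples from 9 sections at E5.5, and 19 sections plus 2 samples marked VE (visceral endoderm) at E5.75. No embryo was treated, and the strain is not given in the sources used here. The labels name no more than 1 embryo per stage, so the sections of a stage are taken to share an animal. The p-values compare sections along that embryo, not embryos, and are too small for a statement about the stage.

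The tables hold 7, 9 and 17 section numbers at the 3 stages, and at E5.75 sections 9 and 13 are not analysed here. The labels do not say which end section 1 is. At E5.75, Pou5f1 had levels of log2(FPKM + 1) from 6.17 to 7.53 over sections 2 to 8, while section 1 listed it at 0, and Tfap2c, a marker of the extraembryonic ectoderm, was at most 1.26 in sections 1 to 8 and at least 5.83 from section 10 on. At this stage low numbers carry epiblast markers: 7 of 8 epiblast markers fell with section number at E5.75 (limma, Benjamini-Hochberg adjustment), while 0 of 8 passed at E5.5 or E5.25, where 1 and 0 of them fell, and 1 and 1 rose, at an unadjusted p under 0.05. At E5.25, 2 to 6 of the 8 markers were at an FPKM of 1 or more in sections 1 to 4 and 4 to 7 in sections 6 to 8, and Pou5f1 was highest in sections 2 to 4. Libraries differed in how many genes they detect, and this moves with position. Genes at an FPKM of 1 or more numbered 2046 to 4282 in sections 1 to 4 and 5636 to 6461 in sections 6 to 8 of E5.25, and at E5.5 rose from 2288 in section 1 and 4019 in section 2 to between 5950 and 6467 from section 6 on. At E5.75 they numbered 3211 and 3424 in sections 1 and 2, and 5303 to 8217 in the other sections. Section 1 of E5.5 stands apart: 69.828% of its FPKM came from the ribosomal RNA gene Rn45s, and Gapdh and Pou5f1 were listed at 0. Section 1 of E5.75 stands apart as well: its FPKM summed to 659683, 52.8% of it from Rn45s, against 169792 to 285460 in the other sections. At E5.5 the Rn45s share was also 56.44%, 26.508% and 35.549% in sections 2, 4 and 5, against 2.359% to 10.685% from section 6 on. At E5.25 it was 26.155%, 23.666%, 9.542% and 0.555% in sections 1 to 4, against 0.676% to 1.993% in sections 6 to 8. Apart from section 4 of E5.25, the share was thus higher in the lower sections of these stages, and its part in the falls was not tested. No read counts were used here, so the depth behind a value is unknown, and a gene without signal is said to be listed at 0. In bulk sections, fewer cells of a type and less RNA per cell cannot be told apart.

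**Figure D1:**
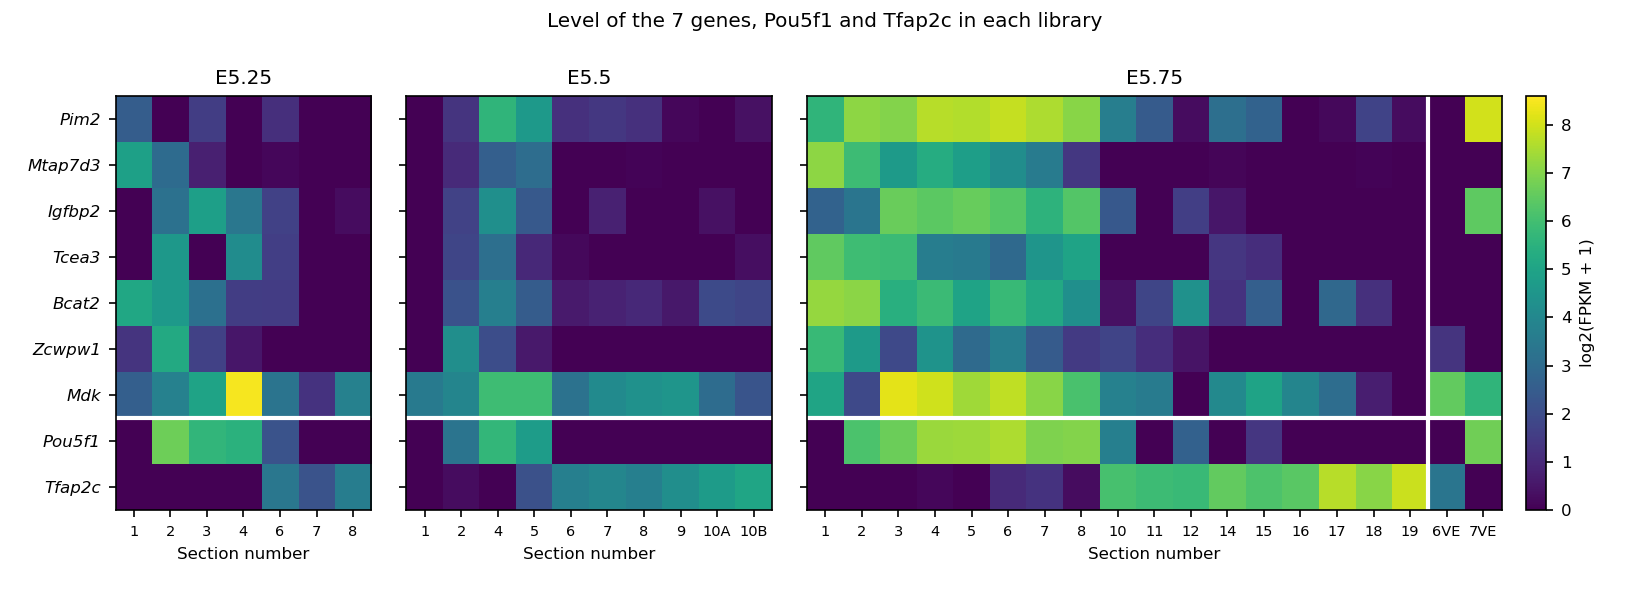
Level of each of the 7 genes, and of Pou5f1 and Tfap2c below the white line, as log2(FPKM + 1) (colour) in every library of the 3 stages, with the section number on the x axis and the 2 VE libraries to the right. At E5.75 all 7 genes reach an FPKM of 1 in each of sections 1 to 8, and at E5.5 section 1 lists 6 of the 7 at 0.

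At E5.75 each of the 7 genes was at an FPKM of 1 or more in all 8 sections from 1 to 8, and none was in section 19. These values chose the genes. Both secreted factors peaked in section 3: Igfbp2 had a lowest value of 2.72, a median of 6.31 and a highest of 6.64 in sections 1 to 8, as log2(FPKM + 1), and a lowest of 0, a median of 0 and a highest of 2.38 in sections 10 to 19. Mdk had a lowest value of 1.91, a median of 7.23 and a highest of 8.26 in sections 1 to 8, and a lowest of 0, a median of 3.58 and a highest of 4.99 above them. Igfbp2 did not overlap between the lower and the upper sections, whereas Mdk did, since section 2 lay below 6 of the 9 upper sections. For both, sections 1 and 2 were the lowest of the first 8.

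The kinase Pim2 had the highest median of the 7 in the lower sections, on a scale that is per length. Its lowest value in sections 1 to 8 was 5.61 in section 1, its median 7.34 and its highest 7.86 in section 6, and in sections 10 to 19 it ran from 0 over a median of 1.74 to 3.68. Between sections 8 and 10 the level of Pim2 dropped by 3.40, against a spread of 0.85 over sections 3 to 8. This is a plateau with a step, and Igfbp2 had the same outline, with a step of 3.91 and a spread of 1.08 on the log2 scale.

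Mtap7d3 was graded over the lower sections, with section 4 above section 3. As deposited it was highest in section 1 at 7.14, had a median of 4.76 and a lowest value of 1.39 (section 8) in sections 1 to 8, and ran from 0 over a median of 0 to 0.11 above them. Its level in section 1 lay 5.76 above that in section 8 on the log2 scale, and the step to section 10 added 1.39. For Zcwpw1, the highest value, 5.79, was in section 1, the median 3.32 and the lowest 1.47 in sections 1 to 8, and in the upper sections it ran from 0 over a median of 0 to 1.75. Sections 8 and 10 of Zcwpw1 lay close together, at 1.47 and 1.75, so that its lower and upper sections overlapped.

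Tcea3 and Bcat2, as deposited, were also highest in section 1, and stepped down after section 8. In sections 1 to 8, Tcea3 had a lowest value of 2.93, a median of 4.72 and a highest of 6.50, and in the upper sections it ran from 0 over a median of 0 to 1.38. Bcat2 had a lowest value of 4.27, a median of 5.61 and a highest of 7.24 in the lower sections, and ran from 0 over a median of 1.25 to 4.36 in the upper. The step from section 8 to section 10 was 4.98 for Tcea3 and 3.88 for Bcat2 on the log2 scale. Bcat2 overlapped through section 12 alone, which lay just above section 8. The order of sections 1 and 2 turns with the scaling: with FPKM rescaled to a common sum, section 2 was the highest for Mtap7d3 (6.32 against 5.63 in section 1), Zcwpw1 (5.08 against 4.30), Tcea3 (6.33, a difference of -1.33 for section 1 minus section 2) and Bcat2 (7.52 against 5.72). Rescaled without Rn45s, section 1 was again the highest for Mtap7d3 and Zcwpw1, and section 2 for Tcea3 and Bcat2.

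The fitted change is the difference on the log2 scale between the last and the first section of a line in section number. At E5.75 it was -8.15 ± 1.06 (SE, n = 17 sections) for Pim2, -7.24 ± 0.85 for Mtap7d3, -6.85 ± 1.18 for Igfbp2, -6.61 ± 0.89 for Tcea3, -6.49 ± 0.90 for Bcat2, -5.25 ± 0.70 for Zcwpw1 and -5.25 ± 1.40 for Mdk. They rank 1, 2, 5, 6, 8, 11 and 12 among the 123 falling genes with a mean FPKM of at least 5. Between them lie Pou5f1, 2410007B07Rik, Sox4, 4930447C04Rik and Otx2, and just outside lies Slc7a3 at -5.12. Among all genes tested at E5.75, 2.07% fell and 18.9% rose by the test (231 and 2108 genes, and 500 and 845 with quantile normalization). The lower sections lay above all upper sections for 4 of the 7, Pim2, Mtap7d3, Igfbp2 and Tcea3, and for 0.395% of all genes, and without section 1 for 4 of the 7 and 0.744% of all genes. Since the choice used this contrast, nothing is read from these counts. Section 1, which lists Pou5f1 at 0, had 4 of 8 epiblast markers, 4 of 12 visceral endoderm markers and 0 of 7 extraembryonic ectoderm markers at an FPKM of 1 or more.

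At E5.5 all 7 fitted changes were below 0, but none of the 7 passed the test over all sections. The changes ranged from -2.40 for Zcwpw1 to -0.44 for Bcat2, with a median of -1.48, while the median over all 8251 genes tested was 1.22 and 21.597% of all genes had a change below 0. By the same test 2.61% of all genes fell and 28.3% rose. Section 1, the library that lists Gapdh at 0, also lists every one of the 7 but Mdk at 0. All 7 were at an FPKM of 1 or more in sections 2 and 4 and 5 of them in section 5, and in each library from section 6 on only 1 to 3 were, as the plot of E5.5 section numbers shows. With quantile normalization 324 genes fell and 844 rose, against 215 and 2332 on the deposited scale, and 0 of the 7 passed on either.

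**Figure D2:**
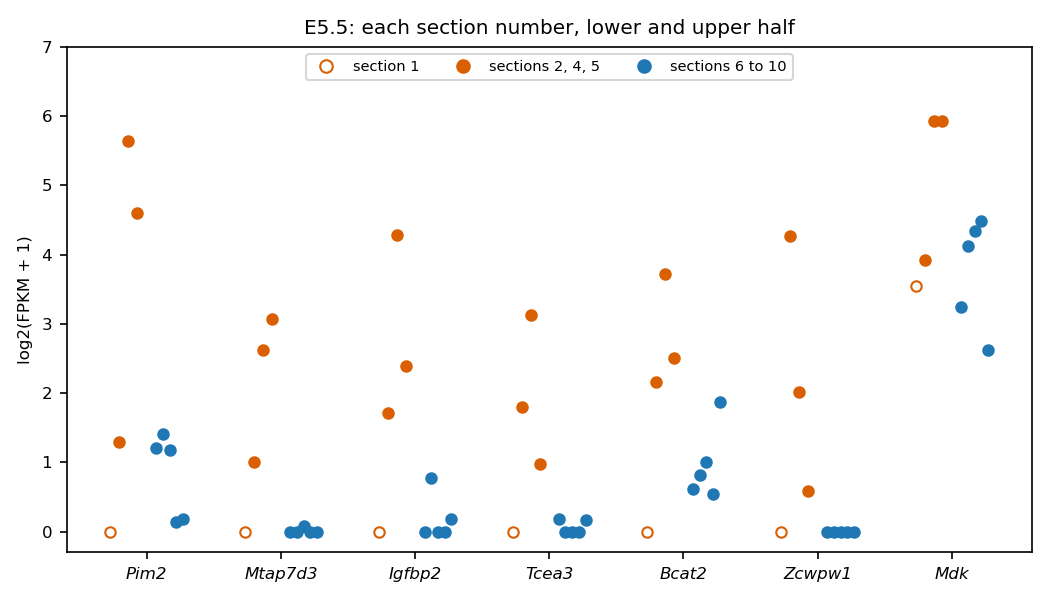
Level of each gene as log2(FPKM + 1) in the 9 section numbers of E5.5, with sections 1 to 5 in orange (section 1 as an open circle) and sections 6 to 10 in blue, and with the 2 parts of section 10 averaged. With section 1 set aside, the orange points of Mtap7d3, Igfbp2, Tcea3, Bcat2 and Zcwpw1 lie above all their blue points.

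The secreted factors were highest in sections 4 and 5 at E5.5. Igfbp2 was at 0, 1.71, 4.28 and 2.39 in sections 1, 2, 4 and 5, and in sections 6 to 10 it ran from 0 over a median of 0 to 0.78. Its fitted change was -1.69 ± 1.15 (limma, Benjamini-Hochberg adjusted p = 0.263, n = 9 sections). Mdk was at 3.55, 3.92, 5.93 and 5.94 in the lower sections and ran from 2.63 over a median of 4.13 to 4.48 in the upper, where it thus stayed detected in every section. Its change was -0.72 ± 1.12 (adjusted p = 0.633), and its lower and upper sections overlapped with and without section 1. With FPKM rescaled to a common sum the change of Mdk was 0.12, the other direction.

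At E5.5, Pim2 stood out in sections 4 and 5. It was at 0, 1.29, 5.64 and 4.61 in sections 1, 2, 4 and 5, and ran from 0.14 over a median of 1.18 to 1.40 in sections 6 to 10. Section 2 lay inside the range of the upper sections, so Pim2 overlapped between them even without section 1. The change was -1.50 ± 1.55 (limma, adjusted p = 0.46).

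The transcription and chromatin genes, like Mtap7d3 and Igfbp2, reached an FPKM of 1 in lower sections of E5.5 and in no upper section. Tcea3 was at 0, 1.81, 3.12 and 0.98 in sections 1, 2, 4 and 5 and at most 0.19 from section 6 on, with 3 of the 5 upper sections listed at 0. Zcwpw1 was at 0, 4.27, 2.02 and 0.58 in the lower sections, and all 5 upper sections listed it at 0. Their changes were -1.48 ± 0.87 (limma, adjusted p = 0.197) and -2.40 ± 1.03 (adjusted p = 0.0841), and the unadjusted p of Zcwpw1, 0.0325, was the only one of the 7 below 0.05.

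Mtap7d3 at E5.5 was at 0, 1.01, 2.62 and 3.07 in sections 1, 2, 4 and 5, and 4 of the 5 upper sections listed it at 0, with the other at 0.08. Bcat2 was at 0, 2.16, 3.72 and 2.50 in the lower sections and ran from 0.54 over a median of 0.82 to 1.88 in the upper, with its highest upper value in section 10. Unlike Mtap7d3, Bcat2 was thus above 0 in every upper section, and at an FPKM of 1 or more in 2 of the 5. Their changes were -1.27 ± 0.99 (limma, adjusted p = 0.323) and -0.44 ± 1.06 (adjusted p = 0.767).

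Over all sections sections 1 to 5 of E5.5 lay above sections 6 to 10 for 0 of the 7 genes and for 1.25% of all genes. Without section 1 they did so for 5 of the 7, Mtap7d3, Igfbp2, Tcea3, Bcat2 and Zcwpw1, and for 3.22% of all genes. A comparison of sections 2, 4 and 5 with sections 6 to 10, chosen after the data were seen, found 6 of the 7 lower in the upper sections by limma with Benjamini-Hochberg adjustment, against 2.03% of all genes. The 6 differences were -3.02 ± 0.78 for Pim2 (adjusted p = 0.0156), -2.22 ± 0.46 for Mtap7d3 (0.00489), -2.60 ± 0.53 for Igfbp2 (0.00488), -1.90 ± 0.45 for Tcea3 (0.0105), -1.82 ± 0.49 for Bcat2 (0.0188) and -2.29 ± 0.62 for Zcwpw1 (0.0194), and that of Mdk was -1.50 ± 0.61 (0.0882). The line in section number without section 1 called 3 of the 7 (Igfbp2, Tcea3 and Zcwpw1) and 1.71% of all genes. The planned comparison of sections 1 to 5 with sections 6 to 10 called 2 of the 7 (Mtap7d3 and Igfbp2) and 1.01% of all genes, and the line without sections 1 and 2 called 2 (Pim2 and Igfbp2) and 0.271%. Mtap7d3, Igfbp2, Tcea3 and Zcwpw1 reached an FPKM of 1 in no upper section of E5.5. They passed the filter on low values only through sections where they are high, which favours a fall, so these counts are not read as support. The labels name no more than 1 embryo, and the calls at E5.5 move with the contrast and with 1 library, section 1. In section 1 visceral endoderm markers summed to an FPKM of 585 and epiblast markers to 48.9. Apoa1 was the highest of these visceral endoderm markers, at 8.86 as log2(FPKM + 1), and Ttr was listed at 0. These are levels as deposited, and the FPKM of section 1 summed to 571857, against 115907 to 168802 in the other columns of E5.5. The blood marker Hba-a1Hba-a2 (8.595) and the decidua markers Des (6.738), Hand2 (5.691) and Hoxa10 (5.081) were also highest there, as log2(FPKM + 1). The other blood and decidua markers measured, Cd52, Ptprc, Prl8a2 and Htra1, were highest in other sections. The part of section 1 in the result beyond these values was not tested.

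At E5.25 all 7 fitted changes were again below 0 and none passed the test. The changes ranged from -5.31 for Bcat2 to -1.16 for Mdk, with a median of -2.11, while the median over all 7148 genes tested was 1.45 and 23.783% of all genes had a change below 0. Few genes passed at this stage at all: 0.0280% of all genes fell and 0.378% rose. At an unadjusted p under 0.05, 3 of the 7 genes fell (Bcat2, Mtap7d3 and Zcwpw1), against 4.001% of all genes. At E5.5 it was 1 of the 7, Zcwpw1, against 4.642%. Mtap7d3 and Zcwpw1 at E5.25, and Zcwpw1 at E5.5, passed the filter on low values only through lower sections. This favours a fall, so these counts are not read as support.

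Igfbp2 at E5.25 was at 0, 3.21, 4.85 and 3.43 in sections 1 to 4 and at 1.67, 0 and 0.27 in sections 6, 7 and 8. It was highest in section 3, with section 1 listed at 0, and overlapped only through section 1. Its change was -2.11 ± 1.68 (limma, adjusted p = 0.368, n = 7 sections). Mdk was at 2.60, 3.77, 4.99 and 8.48 in the lower sections, with section 4 the highest, and at 3.29, 1.25 and 3.78 in the upper. Mdk overlapped between lower and upper sections, with a change of -1.16 ± 2.03 (adjusted p = 0.705).

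Pim2 was low at E5.25, with 2.54, 0, 1.55 and 0 in sections 1 to 4 and 1.17, 0 and 0 in the upper 3. The lower sections alternated between detected and listed at 0, and the change was -1.52 ± 0.93 (limma, adjusted p = 0.238). Tcea3 alternated as well, with 0, 4.59, 0 and 4.18 in sections 1 to 4 and 1.61, 0 and 0 above, and a change of -1.75 ± 1.65 (adjusted p = 0.453). Both genes overlapped between lower and upper sections, with and without section 1.

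Zcwpw1 was at 1.30, 5.24, 1.68 and 0.52 in sections 1 to 4 of E5.25, and all 3 upper sections listed it at 0. Section 2 was its highest section here as at E5.5, and no upper section reached a lower one. Its change was -3.32 ± 1.38 (limma, unadjusted p = 0.0246, adjusted p = 0.0979).

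Bcat2 and Mtap7d3 at E5.25 were lower in each section from 1 to 4 than in the one before. Bcat2 was at 5.12, 4.63, 3.18 and 1.56 in sections 1 to 4 and at 1.52, 0 and 0 above, so that lower and upper sections did not overlap, if narrowly between sections 4 and 6. Mtap7d3 was at 4.88, 3.02, 0.75 and 0 in sections 1 to 4 and at 0.17, 0 and 0 above. In both, section 1 was the highest. The changes were -5.31 ± 1.48 for Bcat2 (limma, unadjusted p = 0.00149, adjusted p = 0.0568) and -4.17 ± 1.31 for Mtap7d3 (unadjusted p = 0.00397, adjusted p = 0.0622). Both passed without section 3 and also without section 4, whereas Mtap7d3 failed the filter on low values without section 1 or section 2.

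Sections 1 to 4 of E5.25 lay above sections 6 to 8 for 2 of the 7 genes, Bcat2 and Zcwpw1, and for 1.55% of all genes. Without section 1 they did so for 3, with Igfbp2, and for 2.36% of all genes. Zcwpw1, like Mtap7d3, passed the filter on low values at E5.25 only through lower sections, which favours a fall. A comparison of sections 2 to 4 with sections 6 to 8, chosen after the data were seen, called 1 of the 7, Igfbp2 (-3.18 ± 0.81, limma, adjusted p = 0.0428), and 0.278% of all genes.

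**Figure D3:**
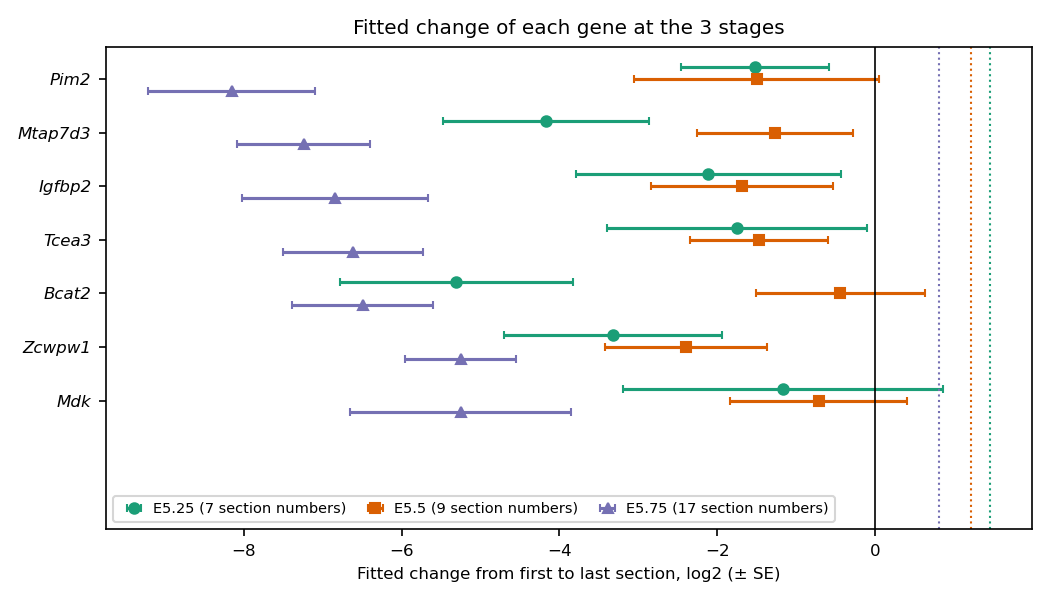
Fitted change from the first to the last section of each gene, on the log2 scale with its SE, at E5.25 (circles), E5.5 (squares) and E5.75 (triangles); dotted lines mark the median change of all genes tested at each stage. All 21 points lie below 0 and left of the 3 dotted lines, which lie at 0.81 for E5.75, 1.22 for E5.5 and 1.45 for E5.25.

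Across the stages the genes thus differed in where they were highest. Mtap7d3 and Bcat2 peaked in section 1 at E5.25 and, at E5.75, in section 1 or 2 by scaling. At E5.5, where section 1 listed both at 0, Mtap7d3 peaked in section 5 and Bcat2 in section 4. Zcwpw1 peaked in section 2 at E5.25 and E5.5 and in section 1 or 2 at E5.75, and Igfbp2 in section 3, section 4 and section 3. Pim2 peaked in section 1, section 4 and section 6. Section numbers of different stages are not matched positions, and the 3 tables may have been normalized separately, so levels are not compared across them. Over the 21 pairs of the 7 genes, Pearson r across sections had a lowest value of -0.466, a median of 0.308 and a highest of 0.89 at E5.25, where 6 pairs were below 0. At E5.5 it ran from 0.231 over a median of 0.782 to 0.937, and at E5.75 from 0.476 over 0.778 to 0.933. These correlations are descriptions over 7, 9 and 17 sections that are taken to share an embryo and that share a trend in gene detection, and at E5.75 they follow from the choice.

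The genes whose pattern was most like the mean of the 7 standardised patterns, by the lowest of the r values of the 3 stages, were taken from 4139 genes with a mean FPKM of at least 5 at E5.75. The 10 nearest were Dek (lowest r 0.87), D7Ertd715e (0.812), Phc1 (0.796), Nlrp1a (0.762), Sox11 (0.761), Pou5f1 (0.743), Nipbl (0.742), Smarcc1 (0.74), Pdzd4 (0.722) and 2410007B07Rik (0.711). Dek, which encodes a chromatin protein, had r values of 0.888, 0.87 and 0.933 from the earliest stage to the latest, and Pou5f1, which encodes the pluripotency factor Oct4, of 0.743, 0.986 and 0.79. For the epiblast markers Otx2 and Tdgf1 the r at E5.25 was lower, 0.315 and 0.318, with 0.876 and 0.983 at E5.5 and 0.902 and 0.782 at E5.75. At E5.75 alone, over 17 sections and 4231 genes, Pim2 was nearest to 2410007B07Rik (r = 0.914) and Igfbp2 to Pou5f1 (r = 0.942). Mtap7d3 was nearest to Sox4 (0.937) and Zcwpw1 (0.933), Tcea3 to 2410007B07Rik (0.933) and Sox4 (0.923), and Bcat2 to Fscn1 (0.903) and Mtap7d3 (0.884). Zcwpw1 was nearest to Mtap7d3 (0.933) and Psip1 (0.9), and Mdk to Gm13051 (0.895) and Tceal8 (0.87).

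The 2 VE libraries of E5.75 come from sections 6 and 7 and can be read only as single values. Pim2 was at 0 in the VE library of section 6 and at 8.02 in that of section 7, beside 7.86 and 7.55 in the other libraries of those sections. Igfbp2 was likewise at 0 and 6.46, beside 6.33 and 5.55. The section 6 VE library listed both at 0, and whether the section 7 VE library lay above its neighbour turns with the scaling. Its FPKM summed to 451155, 48.8% of it from Rn45s, against 215370 in the other library of section 7. Rescaled to a common sum, Pim2 was at 7.04 against 7.63 and Igfbp2 at 5.48 against 5.63, both lower in VE, and rescaled without Rn45s at 7.86 against 7.55 and 6.30 against 5.55, both higher. Mdk was at 6.54 and 5.62 in the VE libraries, beside 7.77 and 7.08. Mtap7d3, Tcea3 and Bcat2 were listed at 0 in both VE libraries, beside 4.20 and 3.57, 2.93 and 4.47, and 5.78 and 5.20. Zcwpw1 was at 1.31 and 0, beside 3.66 and 2.46. The VE libraries listed 1496 and 2147 genes at an FPKM of 1 or more, fewer than any section of that stage. Their markers go partly against the label. At an FPKM of 1 or more were 5 of 12 visceral endoderm markers in section 6 VE, with Amn and Ttr listed at 0 and Tfap2c at 3.36, and 7 of 12 in section 7 VE, with Amn at 7.71 and Ttr at 6.44. The section 7 VE library also held 5 of 8 epiblast markers, with Pou5f1 at 6.73, and the part of epiblast RNA in its Pim2 and Igfbp2 values was not tested.

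Of the relatives of the 7 genes, taken from 7 lists of families and pathways, 0 of 37 tested fell and 12 rose at E5.5, and 1 of 54 fell and 14 rose at E5.75. The rising shares, 32.4% and 25.9%, stand beside 28.3% and 18.9% of all genes, and the falling shares, 0.0% and 1.9%, beside 2.61% and 2.07%, so the counts are no result about the lists themselves. The balance at E5.75 depends on the scaling: with quantile normalization 6 fell and 4 rose (11.1% and 7.4%). Under that scaling the falling genes among all 11149 tested also grew, to 500, and fewer rose. These counts are no result about the lists either. Of the other Pim kinases, Pim3 rose at E5.5 (2.66 ± 0.80, limma, adjusted p = 0.0204) and Pim1 did not pass (0.32 ± 0.81, 0.779). Neither passed at E5.75, where Pim3 changed by 2.16 ± 0.85 (0.0721) and Pim1 by -1.10 ± 1.01 (0.45). Of the MAP7 family, 0 of 2 passed at E5.5 (0 at an unadjusted p under 0.05), and at E5.75 Mtap7 rose (2.21 ± 0.76, adjusted p = 0.0395) while Mtap7d2 fell (-2.83 ± 0.73, 0.00911), a relative named after its value was seen. Mtap7d2 had medians of 2.34 in the lower and 0 in the upper sections, and section 1 listed it at 0. The plot of relatives shows these outlines.

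**Figure D4:**
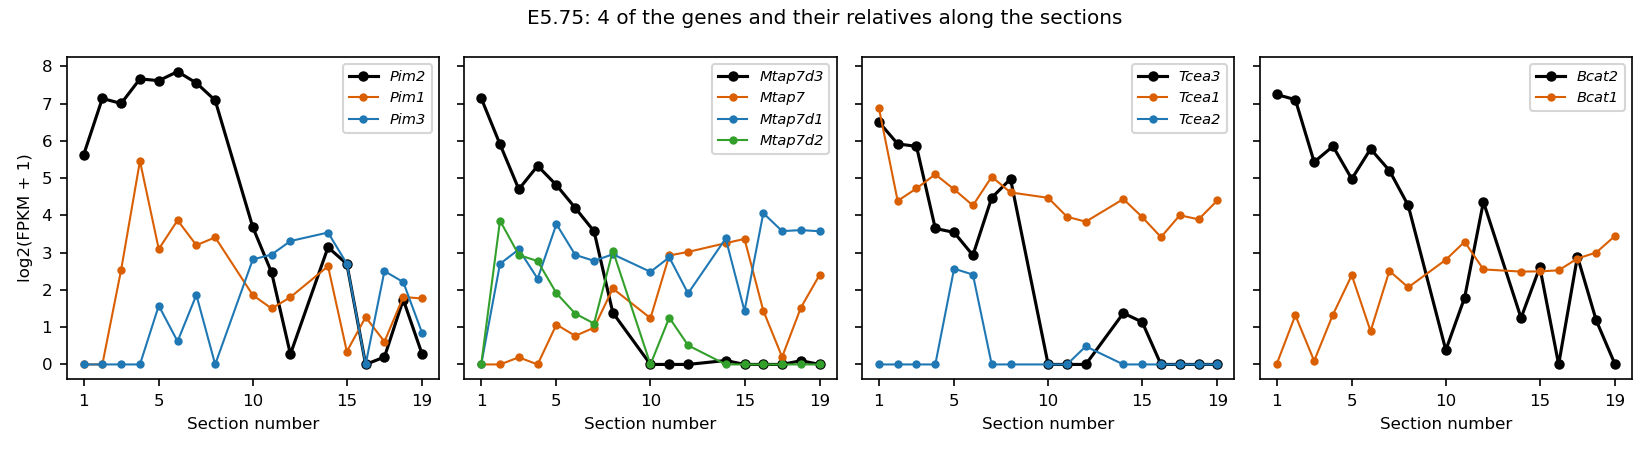
Level as log2(FPKM + 1) of Pim2, Mtap7d3, Tcea3 and Bcat2 (black) and of their relatives (colours) against section number at E5.75, 1 point per section and no error since each section is 1 library. The black lines end at or near 0, while Tcea1 stays between 3.42 and 6.88 and Bcat1 ends at its highest value, 3.45.

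For the ligand side of Igfbp2, 0 of 8 tested genes of insulin-like growth factors, receptors and other binding proteins fell at E5.75 and 3 rose: Igf2 (8.35 ± 0.92, limma, adjusted p = 2.13e-06), Igf2r (2.29 ± 0.69, 0.022) and Insr (1.52 ± 0.51, 0.036), the last named after its value was seen, while 2 fell at an unadjusted p under 0.05. With quantile normalization Igf1r (-2.01, adjusted p = 0.0427) and Irs2 (-2.14, 0.0483), also named after their values were seen, passed as falling, and Igf2r and Insr no longer passed under that or either common sum. At E5.5, Igf2 (5.31 ± 1.16, 0.00379) and Igf2r (2.38 ± 0.68, 0.0158) rose among 4 tested, and 0 fell. Igf2, a growth factor that Igfbp2 protein can bind, thus ran the other way from Igfbp2, with medians of 0.82 in the lower and 6.81 in the upper sections of E5.75. For Mdk, whose known partners include syndecans, Sdc4 rose at E5.5 (6.03 ± 0.82, 0.000547) among 6 tested genes of the family and its receptors, and Sdc4 (7.97 ± 0.71, 2.32e-07) and Sdc1 (3.33 ± 0.87, 0.00968) rose among 7 at E5.75, with 0 falling on the deposited scale. With quantile normalization Itga6, named after its value was seen, passed as falling at E5.75, and Sdc1 did not pass. Ncl, the most abundant of the list, did not pass at E5.75 (-0.58 ± 0.42, 0.325).

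Of the transcript elongation factors, 3 of 8 rose at E5.5, Tcea1 (2.98 ± 0.88, limma, adjusted p = 0.0192), Supt4h1 (4.53 ± 0.97, 0.00351) and Tceb2 (6.57 ± 1.46, 0.00419), and 2 of 10 rose at E5.75, Supt4h1 and Tceb1, with 0 falling at either stage on the deposited scale. Tcea1, the broadly expressed relative of Tcea3, changed by -1.55 ± 0.58 at E5.75 (adjusted p = 0.0604), and passed as falling when rescaled to a common sum without Rn45s (-1.81, 0.0274) and with quantile normalization (-2.05, 0.0171), where Supt4h1 did not pass (0.0634). Tcea2 was at 0 in the median of lower and of upper sections. Of the branched-chain amino acid genes, 4 of 12 rose at E5.5, Bcat1, Bckdhb, Dbt and Slc7a5, and 6 of 16 at E5.75, with 0 falling at either stage. Bcat1, the cytosolic counterpart of Bcat2, rose by 2.79 ± 0.78 at E5.5 (adjusted p = 0.0144) and by 2.53 ± 0.62 at E5.75 (0.00659), the direction opposite to the fitted change of Bcat2. At E5.5 the change of Bcat2, -0.44 ± 1.06, did not pass (limma, adjusted p = 0.767). It was above 0 with a pseudocount of 0.1 (0.49) and without section 4 (0.10), so no opposite direction is read at that stage. Slc7a5, a transporter of large neutral amino acids, rose by 3.80 ± 0.68 at E5.75 (0.000487). Of the meiotic recombination genes, Sycp3 rose at E5.5 (2.67 ± 0.80, 0.0199) among 3 tested, and 0 of 8 passed at E5.75 on the deposited scale, 1 falling at an unadjusted p under 0.05. With quantile normalization Smc1b, named after its value was seen, passed as falling at E5.75. At E5.25, 0 of 34 genes tested on these 7 lists passed by limma, with 1 falling and 8 rising at an unadjusted p under 0.05.

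The lists' median changes at E5.75 ranged from -0.38 for the meiotic genes to 1.68 for the branched-chain genes, against 0.81 for all genes tested, and at E5.5 from 0.12 for the MAP7 family to 2.24 for the elongation factors, against 1.22. Under the other scalings, each of the 12 list genes that passed at E5.5 and the 15 at E5.75 kept its direction. The median change of all genes at E5.5 fell from 1.22 to 0.44 with quantile normalization, under which 6 of the 12 still passed, and Pim3, Igf2r, Tcea1, Bcat1, Dbt and Sycp3 did not. The same 6 genes did not pass at E5.5 when rescaled to a common sum without Rn45s, while all 12 passed with a common sum. At E5.75 the median change fell from 0.81 to 0.16 with quantile normalization, and 5 of the 15 still passed, while Bcat1, Bckdk, Dbt, Dld, Igf2r, Insr, Mccc1, Mtap7, Sdc1 and Supt4h1 did not. With a common sum 11 of the 15 still passed, and without Rn45s 10 did.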

How the data were processed

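Tissue from cryosections of mouse embryos was captured by laser and sequenced with Smart-seq2, per the labels' protocols. The genome build mm10 and the tools TopHat2 2.0.4 and Cufflinks 2.0.2 are given in the submitters' processing notes, with no roles; the annotation and the normalization step are not given in the sources used here. The deposited tables, 1 per stage, hold values on a log2 scale made by the authors, which were read as log2(FPKM + 1) from the tables' names, since they start at 0. Back-transformed FPKM values were used for means and filters. For 7 section numbers of E5.5 the authors deposited 1 joined column for parts A and B, and how they were joined is not stated. The columns of section 10, parts A and B, were averaged, because their labels conflict on whether the second is section 10 or 11.

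The members and lists were chosen with earlier results of these data known. A gene was tested where its FPKM reached 1 in 2 or more sections. Stage by stage, a line in section number (0 for the first and 1 for the last section) was fitted with limma 3.58.1 in R 4.3.3, leaving out the VE libraries, and 2-sided p-values of moderated statistics with a variance trend were adjusted by the Benjamini-Hochberg method over all genes tested, at a threshold of 0.05. This filter kept all 7 members at the 3 stages. It kept Mtap7d3, Igfbp2, Tcea3 and Zcwpw1 at E5.5, and Mtap7d3 and Zcwpw1 at E5.25, only through lower sections, where they are high. For these genes the filter favours a fall. The method was checked on simulated data with independent noise and with changes larger than those of the members at E5.25 and E5.5. The check therefore says nothing about the power or the error rate at these stages. Named genes are the 7 members, list genes past the threshold at E5.25 or E5.5 with at most 2 others per list by mean level, the 10 genes most like the members' mean pattern and up to 3 per member at E5.75. Cell type markers are lists for epiblast, extraembryonic ectoderm, ectoplacental cone, visceral endoderm, decidua and blood. By this test at E5.5, 0 of 8 epiblast markers, 4 of 7 extraembryonic ectoderm markers, 3 of 4 ectoplacental cone markers, 0 of 10 visceral endoderm markers, 1 of 5 decidua markers and 1 of 2 blood markers rose, and 1 each of the last 3 lists fell. Promoter windows are RefSeq's for GRCm38.p6 and gene positions GENCODE M21's, the mm10 build. Alternatives changed the pseudocount, filter, scaling, variance model, covariate, contrast and sections used. Figures were drawn with matplotlib 3.10.9.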

Additional observations from a re-analysis of the deposited data

Results flagged for a closer look

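Zcwpw1 had 1 section far above the others at both earlier stages. At E5.25 its highest section was section 2 at 5.24 on the log2(FPKM + 1) scale, with the next at 1.68, and at E5.5 it was again section 2, at 4.27, with the next at 2.02. Of 14 sets of sections examined for a value that stands apart, these were the only ones. The nominal chance rate of about 5% of sets holds only for independent values without ties at a floor. Here the sections of a stage are taken to share an embryo, and all upper sections listed Zcwpw1 at the floor. The rate at which chance gives such a value in these sets is therefore unknown. Whether section 2 of the E5.25 embryo and section 2 of the E5.5 embryo match in position was not tested.

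Pim2 and Igfbp2 gave a signal in the VE library of section 7, which no comparison between sections used. Pim2 was at 8.02 there, above the 7.55 of the other library of section 7, and Igfbp2 was at 6.46, above 5.55. The VE library had the larger sum of FPKM, 451155 against 215370, and rescaled to a common sum both genes lay below the other library, at 7.04 against 7.63 and 5.48 against 5.63, while rescaled without Rn45s both lay above it. Each of these is 1 library, and the VE library of section 6 listed both genes at 0.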

How the results depend on the processing

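Of the fitted changes under the alternatives, 130 of 133 at E5.25, 147 of 151 at E5.5 and 210 of 210 at E5.75 stayed below 0. The exceptions were Tcea3 at E5.25 (1.10) and Mdk at E5.25 (4.08) with gene detection as a covariate, Mdk at E5.25 without section 7 (0.28; leaving out each section in turn gave -2.71 to 0.28), Bcat2 at E5.5 with a pseudocount of 0.1 (0.49) and without section 4 (0.10, within -1.86 to 0.10), and Mdk at E5.5 rescaled to a common sum (0.12) and without section 10 (0.24, within -1.56 to 0.24). At E5.75, in alternatives chosen after seeing the data, section 1 minus section 2 turned from above to below 0 with a common sum for Mtap7d3 (-0.70), Tcea3 (-1.33), Bcat2 (-1.80) and Zcwpw1 (-0.78), and without Rn45s for Tcea3 (-0.53) and Bcat2 (-0.99). The VE minus the other library of section 7 was -0.59 for Pim2 and -0.14 for Igfbp2 with a common sum, and 0.31 and 0.75 without Rn45s. At E5.25 the number of members passing was 0. It became 2 with a pseudocount of 0.1 and 2 with a filter at an FPKM of 5. With a common sum it was 1, and without the variance trend 1. It was 1 when lower and upper sections were compared without section 1 (0.278% of all genes fell). It ranged from 0 to 2 when each section was left out in turn (2 without section 3 or section 4). Falling calls among all genes at E5.25 ran from 2 to 124 when each section was left out, and from 0 to 114 under the other alternatives. At E5.5 the number of members passing was 0. It became 2 when lower and upper sections were compared (1.01% of all genes fell) and 2 without sections 1 and 2 (0.271%). It became 6 when they were compared without section 1 (2.03%, chosen after seeing the data). It ranged from 0 to 3 when each section was left out (3 without section 1, against 1.71%). Some members passed the filter only through lower sections, which favours a fall, so the member counts are not read as support. Over all genes, 2 fell and 27 rose at E5.25, with 0 to 124 and 0 to 1454 under the alternatives. At E5.5, 215 fell and 2332 rose, with 0 to 324 and 0 to 3093, and at E5.75, 231 and 2108, with 160 to 500 and 405 to 2554. Some alternatives, such as leaving out section 1 or 2 of E5.25, gave no value for a member that failed the filter on low values. The causes were not tested. No paired analysis was possible because section numbers are positions and not replicates, and the labels name no more than 1 embryo per stage. The number of libraries, 7, 9 and 17, limits the precision, and read depth is unknown.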
